A study of Homo sapiens with 8 samples.

Results

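The endoplasmic reticulum (ER) folding and secretory genes were a list of 36 genes for chaperones, disulfide isomerases, ER-associated degradation, the translocon and the stress sensors, and 35 of them were measured here, of 19775 genes in all. A gene belonged to the list by its symbol, and it was measured through the probe sets, the groups of short probes printed for one transcript, that the platform annotation pairs with that symbol alone. The 35 genes had 82 such probe sets of 54675 on the array. The only probe set of SYVN1, the ubiquitin ligase of ER-associated degradation, is shared with a microRNA symbol, so no value is given for it. The list was not chosen by a threshold on these values, but it was drawn up with earlier results of these data known.

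The arrays were Affymetrix expression arrays of 2 human cell lines from acute lymphoblastic leukaemia, labelled SUP-B8 and NALM-6. Each line was grown for 72 hours with DMSO, the solvent control, or with GSK126 at 0.5 uM, a small molecule that inhibits EZH2, the histone H3 lysine 27 methyltransferase of Polycomb repressive complex 2. There were 4 groups of 2 arrays, 8 arrays in all: SUP-B8 with DMSO, SUP-B8 with GSK126, NALM-6 with DMSO and NALM-6 with GSK126. The labels call the 2 arrays of a group biological replicates and say no more about the cultures. Each label stands for a single line and a single dose and time, and protein and secretion were not measured. Every value below is a log2 expression level or a difference between such levels.

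Proteins bound for the surface or the outside of a cell enter the ER through the SEC61 channel, where chaperones fold them, disulfide isomerases join their cysteines, and misfolded chains are passed back to the cytosol for degradation. When folding falls behind, the sensors IRE1 (the product of ERN1), ATF6 and PERK (the product of EIF2AK3) start the unfolded protein response. It raises chaperone and degradation genes through XBP1 and ATF6 and slows translation through PERK, with the transcription factor ATF4 downstream of PERK. In the B lineage this machinery is best known from plasma cells, which enlarge their ER to secrete antibody.

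The arrays of a group correlated at 0.998 across all probe sets, and the medians of all probe sets lay between 7.18 and 7.24 on the 8 arrays. The pan-B genes CD79A, CD79B, PAX5 and EBF1 were high under both labels, with group means from 11.70 to 13.31, although some of them changed with GSK126 as given below. DNTT, the terminal transferase of early B cells, is known to be expressed in the NALM-6 line, but it averaged 6.86 on the arrays labelled NALM-6 with DMSO, below the array medians, and 13.67 on those labelled SUP-B8. VPREB1 and CD9 followed DNTT, and MS4A1, CD86 and CCR7 had the opposite pattern. The groups are therefore called by their labels throughout, as NALM-6-labelled and SUP-B8-labelled arrays, and any direction between the lines rests on those labels. Of 13 measured markers of T, myeloid, stromal and erythroid cells, 8 lay below the array medians on all 8 arrays, and none of the 5 that could be tested differed between GSK126 and DMSO on the NALM-6-labelled arrays.

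On the NALM-6-labelled arrays most of the list was called higher after GSK126 and no member was called lower. By limma's moderated test with Benjamini-Hochberg adjustment over 13161 genes, called at an adjusted p under 0.05, 30 of the 35 members were higher after GSK126, 0 were lower and 5 did not pass. Over all genes tested, 20.8% were called higher and 18.5% lower. The median log2 difference of the members was 0.61, against 0.02 for all genes. At least 2-fold rises were called for 6 members, ERN1, CREB3L2, SDF2L1, HSP90B1, MANF and SELENOS, and for 1.47% of all genes. All 35 members passed the filter on dim genes. On the probe set that represents each, none had a group below the array medians, so no member entered the test through 1 treatment alone. The member median was 11.08 and 11.16 on the 2 DMSO arrays and 11.84 and 11.89 on the 2 GSK126 arrays, and without the first DMSO array the median difference was 0.54.

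**Figure D1:**
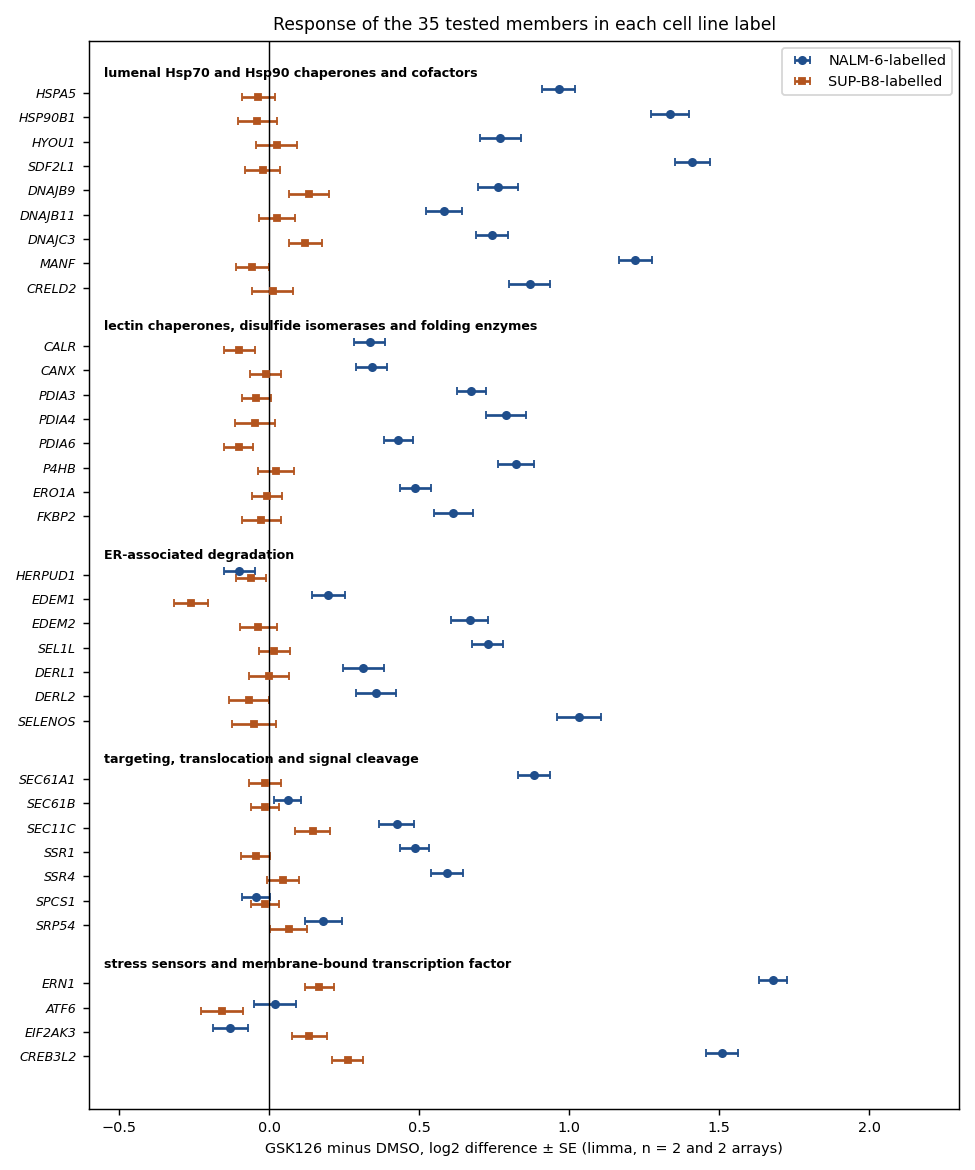
Log2 difference of GSK126 minus DMSO (horizontal axis) for each of the 35 measured members, grouped by role, with standard errors from limma; blue circles are NALM-6-labelled and orange squares SUP-B8-labelled arrays, 2 arrays per group. The blue points lie mostly between 0.3 and 1.7, while the orange points stay between -0.26 and 0.26.

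The lumenal chaperones and their cofactors moved as a whole: all 9 were called higher, by 0.58 to 1.41. HSPA5, the ER Hsp70 known as BiP, stood at 12.40 and 12.50 with DMSO and at 13.40 and 13.43 with GSK126 on the NALM-6-labelled arrays. On the SUP-B8-labelled arrays it stood at 13.40 and 13.48 with DMSO and at 13.37 and 13.44 with GSK126. The 2 NALM-6-labelled DMSO arrays were thus the low ones and the other 6 arrays lay close together. The NALM-6-labelled difference was 0.96 ± 0.06 (SE), a 1.95-fold rise with an adjusted p of 8.55e-06 in limma.

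HSP90B1, the ER Hsp90 (GRP94), measured 10.42 and 10.60 with DMSO and 11.84 and 11.86 with GSK126 under the NALM-6 label. Under the SUP-B8 label its levels were 11.49 and 11.52 with DMSO and 11.46 on both GSK126 arrays. After GSK126 the NALM-6-labelled arrays lay above both SUP-B8-labelled groups, while with DMSO they lay below them. The rise was 1.34 ± 0.06 (SE), or 2.52-fold (adjusted p = 3.78e-06). The probe sets of HSP90B1, and those that represent CALR and PDIA6, are of the class whose probes can also match other transcripts.

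SDF2L1, a cofactor of the BiP cycle, read 10.004 and 10.15 with DMSO and 11.46 and 11.51 with GSK126 on the NALM-6-labelled arrays. It read 11.22 and 11.26, and 11.21 and 11.22, on the SUP-B8-labelled arrays with DMSO and GSK126. Its rise of 1.41 ± 0.06 (SE) was the largest of the chaperone group, 2.66-fold (adjusted p = 2.45e-06). MANF, a secreted ER-stress factor that binds BiP, went from 11.30 and 11.40 to 12.57 on both arrays, a rise of 1.22 ± 0.06 (SE; adjusted p = 3.27e-06). MANF levels under the SUP-B8 label, 12.04 and 12.13 with DMSO and 12.04 and 12.02 with GSK126, lay between those NALM-6-labelled groups.

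HYOU1, the large Hsp110-type chaperone that exchanges nucleotide on BiP, measured 10.96 and 11.12 with DMSO and 11.75 and 11.87 with GSK126 under the NALM-6 label. Under the SUP-B8 label it measured 12.02 and 12.09 with DMSO and 12.08 and 12.07 with GSK126, so even after GSK126 the NALM-6-labelled arrays stayed below the SUP-B8-labelled ones. The rise was 0.77 ± 0.07 (SE; adjusted p = 7.87e-05). DNAJB9, a BiP co-chaperone that represses IRE1, had the opposite placing of the lines. It measured 11.11 and 11.26, then 11.92 and 11.99, on the NALM-6-labelled arrays and 10.24, 10.34, 10.45 and 10.40 on the SUP-B8-labelled ones. Its rise was 0.76 ± 0.07 (SE; adjusted p = 7.10e-05). The remaining 3 of the group were called higher too: CRELD2, a folding factor, by 0.87, DNAJC3, the co-chaperone that inhibits PERK, by 0.74, and DNAJB11, a BiP co-chaperone, by 0.58.

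The sequence before the start of several of these genes holds the letters by which the unfolded protein response is known to act, and 8 of them are printed here because they show the matched letters; 7 of the 8 genes were called higher on the NALM-6-labelled arrays and HERPUD1 was not. The ER stress element was searched as CCAAT, 9 bases of any kind and CCACG on either strand, and element II as ATTGG, 1 base and CCACG. The UPR element core was searched as TGACGTGG. Capitals mark the matched letters, including the bases between the pieces; where the match lies on the opposite strand the capitals read as its reverse complement, as in CALR. The windows are RefSeq promoter entries of build GRCh38.p14, 250 bases before to 50 after a start, and each stretch is written 5′ to 3′ on the gene's strand with its place: HSPA5 at chr9:125241371-125241429 (minus), HSP90B1 at chr12:103930196-103930359 (plus), CALR at chr19:12938364-12938422 (plus), CRELD2 at chr22:49918534-49918592 (plus), PDIA6 at chr2:10812833-10812891 (minus), HYOU1 at chr11:119057254-119057413 (minus), SDF2L1 at chr22:21642094-21642144 (plus) and HERPUD1 at chr16:56932005-56932055 (plus).
HSPA5: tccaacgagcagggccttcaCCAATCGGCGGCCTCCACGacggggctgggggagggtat
HSP90B1: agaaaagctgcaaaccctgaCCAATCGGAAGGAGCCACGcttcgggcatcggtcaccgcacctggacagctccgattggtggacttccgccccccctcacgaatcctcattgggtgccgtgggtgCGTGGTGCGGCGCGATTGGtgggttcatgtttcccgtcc
CALR: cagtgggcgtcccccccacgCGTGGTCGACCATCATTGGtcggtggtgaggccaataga
CRELD2: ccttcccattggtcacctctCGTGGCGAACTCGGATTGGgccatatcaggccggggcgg
PDIA6: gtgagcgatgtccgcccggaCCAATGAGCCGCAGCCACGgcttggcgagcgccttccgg
HYOU1: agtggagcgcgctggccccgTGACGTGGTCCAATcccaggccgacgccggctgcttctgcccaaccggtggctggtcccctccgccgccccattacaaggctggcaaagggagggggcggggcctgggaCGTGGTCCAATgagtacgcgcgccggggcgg
SDF2L1: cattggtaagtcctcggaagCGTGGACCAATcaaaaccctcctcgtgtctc
HERPUD1: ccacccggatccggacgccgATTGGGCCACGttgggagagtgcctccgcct

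The ER stress element was present in 6 of the 33 members with a promoter entry (CALR, CANX, CRELD2, HSP90B1, HSPA5 and PDIA6), or 18.2%, against 0.0916% of 27305 genes with an entry, 25 genes in all. XBP1, ERO1B, SERP1 and FICD, genes of the same pathway outside the list, were among those 25. SERP1 and FICD were picked out after the matches were seen. Others of the 25 outside the list included ALG12 and EIF2A, and also FRG2, GLRA2, NLRP4, SYNPO, TRIM5 and ZNF17. Element II was in 3 members, HERPUD1, HYOU1 and SDF2L1, or 9.09% against 0.0696% of genes. The UPR element core was in HYOU1, where it overlaps an element II, and in SSR4, or 6.06% against 0.927%. The CCAAT box alone, which is a piece of both elements, was in 81.8% of members and 39.7% of genes. On the NALM-6-labelled arrays 9 of the 10 members with any of the 3 elements and 19 of the 22 measured members with an entry but no element were called higher, with median differences of 0.68 and 0.64. A match of letters is a description of the sequence, and binding was not measured. The elements are known from the unfolded protein response and the list holds genes of that response, so higher shares are no independent result. The 27305 genes with an entry also hold non-coding ones, LINC02213 among them. The window of ERN1 held a CCAAT box and none of the 3 elements.

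**Figure D2:**
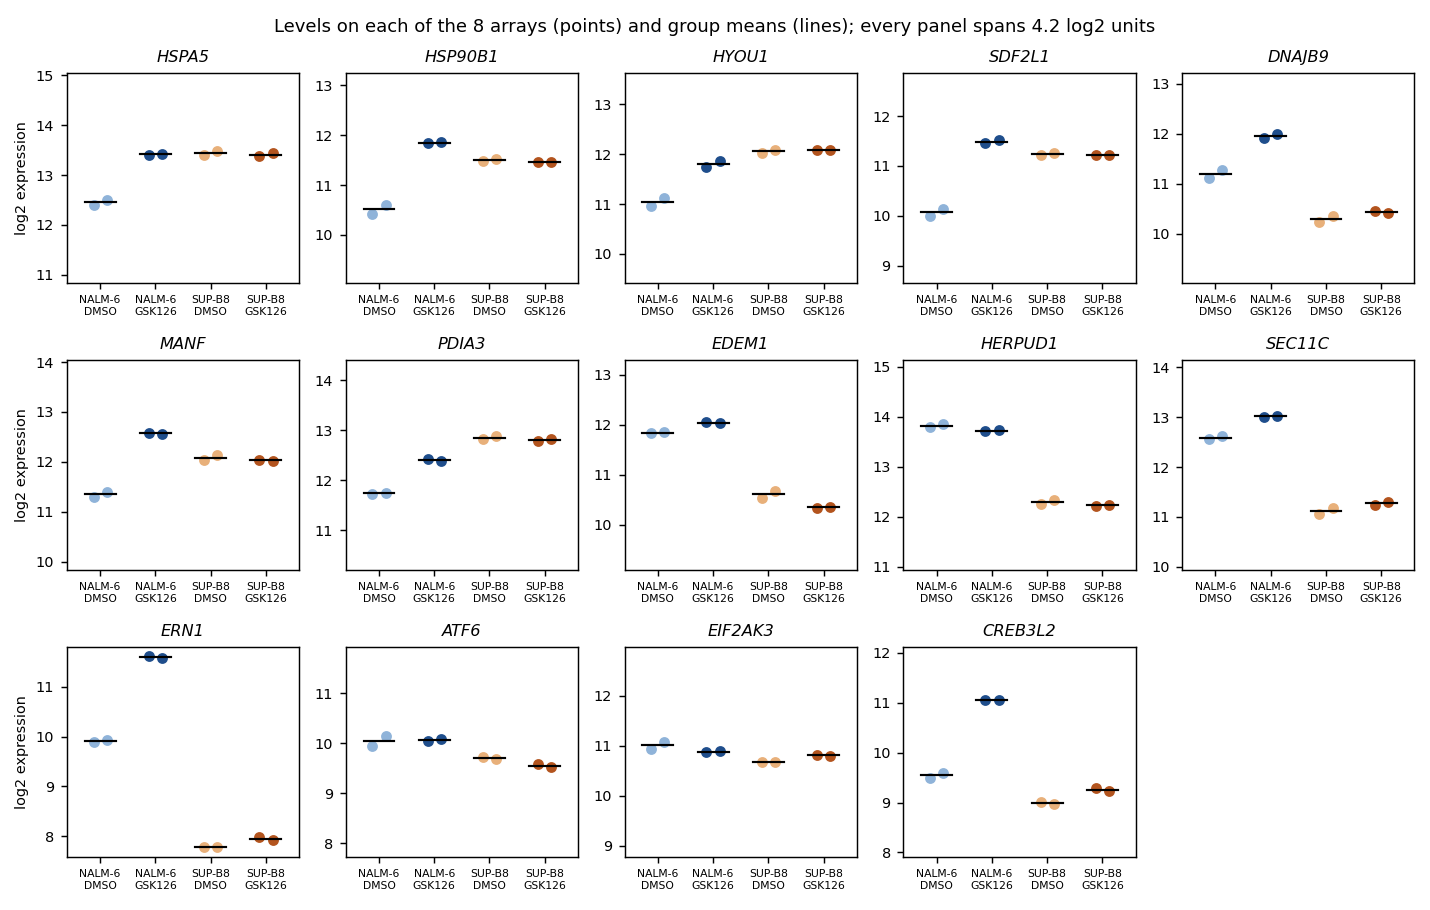
Log2 expression on each of the 8 arrays (points) with group means (lines) for 14 members, each panel spanning the same height in log2 units; the groups are the 2 labels with DMSO or GSK126. HSPA5, HSP90B1, SDF2L1 and MANF are low on the NALM-6-labelled DMSO arrays alone. ERN1, CREB3L2, HSP90B1, SDF2L1, MANF, DNAJB9, EDEM1 and SEC11C are highest on the NALM-6-labelled GSK126 arrays.

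The lectin chaperones, disulfide isomerases and folding enzymes also rose without exception on the NALM-6-labelled arrays, 8 of 8, by 0.34 to 0.82. PDIA3, the isomerase that works with calnexin and calreticulin, measured 11.73 and 11.74 with DMSO and 12.43 and 12.39 with GSK126 under the NALM-6 label. It measured 12.82 and 12.89 with DMSO and 12.80 and 12.82 with GSK126 under the SUP-B8 label, above every NALM-6-labelled array. Its rise was 0.67 ± 0.05 (SE; adjusted p = 2.43e-05), and 0.35 when its 3 probe sets were averaged. The largest rises of the group were in P4HB, the abundant protein disulfide isomerase, by 0.82, and in PDIA4 by 0.79. FKBP2, an ER prolyl isomerase, rose by 0.61 and PDIA6 by 0.43. The lectin chaperones themselves rose least, calnexin (CANX) by 0.34 ± 0.05 (SE) and calreticulin (CALR) by 0.34 ± 0.05 (SE). ERO1A, the oxidase that recharges the isomerases, rose by 0.49 on the probe set that represents it, but the mean of its 3 probe sets gave 0.13 and did not pass (adjusted p = 0.0674).

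Of the 7 measured genes of ER-associated degradation, 6 were called higher and HERPUD1 was not. HERPUD1, a membrane scaffold of the degradation complex that is widely used as a stress marker, measured 13.80 and 13.85 with DMSO and 13.71 and 13.74 with GSK126 on the NALM-6-labelled arrays. It measured 12.24, 12.32, 12.22 and 12.23 on the SUP-B8-labelled arrays. The 2 labels were far apart and the treatments were not: the NALM-6-labelled difference was -0.10 ± 0.05 (SE, adjusted p = 0.166). Its 2 arrays per group did not overlap, which held for 68.8% of all genes in that comparison. By limma with a trended robust prior HERPUD1 was called lower (adjusted p = 0.0217). SELENOS, a selenoprotein that links the retrotranslocation machinery to the membrane, rose by 1.03 ± 0.07 (SE). SEL1L, the partner of SYVN1, rose by 0.73 and EDEM2, a mannose-trimming factor, by 0.67.

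DERL2 and DERL1, candidate channel proteins of the pathway, rose by 0.36 and 0.31, and a second probe set of DERL2 gave 0.74, with a mean of 0.55. EDEM1, another mannose-trimming factor, measured 11.83 and 11.86 with DMSO and 12.05 and 12.03 with GSK126 on the NALM-6-labelled arrays, and 10.54, 10.67, 10.34 and 10.35 on the SUP-B8-labelled ones. The GSK126 arrays lay above the DMSO arrays under the NALM-6 label and below them under the SUP-B8 label. The NALM-6-labelled rise was 0.20 ± 0.06 (SE; adjusted p = 0.0231), and the call was lost when any 1 of the 4 NALM-6-labelled arrays was left out, with adjusted p from 0.0598 to 0.105.

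In targeting, translocation and signal cleavage, 5 of 7 members were called higher. SEC61A1, the pore of the channel, rose by 0.88 ± 0.05 (SE; adjusted p = 1.05e-05), whereas the small channel subunit SEC61B did not pass (0.06 ± 0.05 (SE); adjusted p = 0.339) until both of its probe sets were averaged (0.25). SSR4 and SSR1, subunits of the translocon-associated protein complex, rose by 0.59 and 0.49. SEC11C, a catalytic subunit of signal peptidase, measured 12.56 and 12.62 with DMSO and 13.01 and 13.02 with GSK126 under the NALM-6 label, and 11.07, 11.19, 11.24 and 11.30 under the SUP-B8 label. All NALM-6-labelled arrays were thus above all SUP-B8-labelled ones. SEC11C rose by 0.43 ± 0.06 (SE; adjusted p = 6.78e-04), but its second probe set was at -0.11 and the mean of both gave 0.16, which did not pass (adjusted p = 0.0757). SRP54, the GTPase of the signal recognition particle, was at the edge of the threshold, at 0.18 ± 0.06 (SE; adjusted p = 0.0489), with a call lost in 12 of 17 alternatives and a value of 0.11 without the first NALM-6-labelled DMSO array. SPCS1, a noncatalytic signal peptidase subunit, did not pass, at -0.04 ± 0.05 (SE; adjusted p = 0.508).

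The stress sensors and CREB3L2 split, with the largest rise of the list on representative probe sets in ERN1 and no call in ATF6 or EIF2AK3. ERN1, which encodes the kinase and RNase IRE1 that splices XBP1, measured 9.90 and 9.93 with DMSO and 11.61 and 11.57 with GSK126 on the NALM-6-labelled arrays. It measured 7.79 and 7.78 with DMSO and 7.98 and 7.93 with GSK126 on the SUP-B8-labelled arrays. The 4 groups did not overlap, and both treated groups were the higher of their line. Over all genes the treatments did not overlap for 68.8% under the NALM-6 label and 49.5% under the SUP-B8 label. Between the labels with DMSO the share was 81.1%. The NALM-6-labelled rise was 1.68 ± 0.05 (SE), 3.20-fold (adjusted p = 4.43e-07); a second probe set gave 1.74 and the third 0.18. As means of probe sets ERN1 was at 1.201, below SDF2L1 at 1.41 and MANF at 1.22.

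CREB3L2, a membrane-bound transcription factor that is cleaved in the Golgi and drives secretory genes, measured 9.50 and 9.60 with DMSO and 11.05 and 11.06 with GSK126 under the NALM-6 label. Under the SUP-B8 label it measured 9.01 and 8.97, then 9.28 and 9.22. The NALM-6-labelled GSK126 arrays stood clear of the other 6. The rise was 1.51 ± 0.05 (SE), 2.85-fold (adjusted p = 1.16e-06). It rests on 1 probe set. Of the other 2, one gave 0.15, and the one at -0.12 lay below the array median on all 8 arrays. The mean of the 3 gave 0.51, which still passed.

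ATF6, the sensor that is itself a transcription factor, measured 9.95 and 10.15 with DMSO and 10.05 and 10.08 with GSK126 on the NALM-6-labelled arrays, and 9.73, 9.69, 9.58 and 9.52 on the SUP-B8-labelled arrays. The treated NALM-6-labelled arrays fell inside the range of the controls (difference 0.02 ± 0.07 (SE); adjusted p = 0.854). EIF2AK3 measured 10.93 and 11.08 with DMSO and 10.87 and 10.89 with GSK126 under the NALM-6 label, and 10.68 on both DMSO and 10.83 and 10.80 on the GSK126 arrays under the SUP-B8 label. Its NALM-6-labelled difference was -0.13 ± 0.06 (SE, adjusted p = 0.119), and -0.20 without the first DMSO array. By limma with a trended robust prior it passed as lower (adjusted p = 0.0493).

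Other genes of the pathway, 76 on the list and 70 tested, gave 43 called higher and 5 lower on the NALM-6-labelled arrays. Their median difference was 0.22. Among all genes tested on those arrays, 20.8% were called higher and 18.5% lower. XBP1, the transcription factor downstream of IRE1, measured 11.66 on both DMSO arrays and 12.33 and 12.34 on the GSK126 arrays, a rise of 0.67 ± 0.06 (SE; adjusted p = 9.89e-05) that was 0.32 when its probe sets were averaged. These probe sets do not tell its spliced from its unspliced form. Of the genes downstream of PERK, ATF4 rose by 0.19 ± 0.05 (SE; adjusted p = 0.0217), a call lost in 5 of 17 alternatives and at 0.16 without the first DMSO array. DDIT3, the factor known as CHOP, was at -0.07 ± 0.06 (SE; adjusted p = 0.443). PPP1R15A, the phosphatase subunit GADD34 that reverses the translation block, fell from 10.72 and 10.66 to 9.32 and 9.43, a difference of -1.32 ± 0.06 (SE; adjusted p = 3.27e-06).

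The shares of these lists stand beside 20.8% of all genes called higher and 18.5% lower. Transport from the ER to the Golgi had the largest share called, with 13 of 14 tested genes higher. Among them were the cargo receptors LMAN1 by 0.77 and SURF4 by 0.57. N-glycan transfer had 6 of 10 higher, led by RPN2 at 0.62, and the other targeting and translocation factors 10 of 15, among them SPCS3 at 0.81 and SSR3 at 0.59 (0.51 and 0.67 as the means of their probe sets). The other degradation factors had 5 of 11 higher and 0 lower, led by EDEM3 at 0.64. Among other folding factors 6 of 10 were higher, DNAJC1 by 1.01 and the cyclophilin PPIB by 0.92, and 3 were lower: ERP44 at -0.40, DNAJC10 at -0.23 and SDF2 at -0.22. Without the second DMSO array DNAJC10 was at -0.19 and SDF2 at -0.15, and neither passed. SEC62, of the posttranslational translocon, was also lower, at -0.38 (-0.20 as the mean of its probe sets).

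Plasma-cell genes moved on the same arrays. MZB1, itself a lumenal co-chaperone, rose by 0.98, SDC1 by 0.67 and IRF4 by 0.49, TNFRSF17 fell by 0.75, and PRDM1 and JCHAIN did not pass. On the SUP-B8-labelled arrays, where no ER member was called, SDC1 rose by 0.40 and JCHAIN by 0.55, and the other 4 did not pass. Some B-cell markers were called as well: under the NALM-6 label CD79B rose by 0.55 and PAX5 by 0.34, while EBF1 was lower at -0.42 and MS4A1 at -0.95. CD79A, DNTT, VPREB1, CD9, CD86 and CCR7 did not pass there, and of all genes 20.8% were called higher and 18.5% lower. Under the SUP-B8 label MS4A1 rose by 1.07 and the other B-cell markers did not pass. The mean level of the 6 plasma-cell markers ran from 10.453 to 10.505 on the NALM-6-labelled DMSO arrays and from 10.735 to 10.74 on the GSK126 arrays. On the SUP-B8-labelled arrays it ran from 9.329 to 9.381 with DMSO and from 9.555 to 9.659 with GSK126. With DMSO, TNFRSF17 was at -4.98 for SUP-B8-labelled minus NALM-6-labelled arrays, and it lay below the array medians under the SUP-B8 label. JCHAIN at -0.85, PRDM1 at -0.75 and IRF4 at -0.66 were also lower, while SDC1 at 0.32 and MZB1 at 0.17 were higher. The part of these markers in the change of the ER genes was not tested, and in bulk RNA a change in the share of cells of a kind cannot be told apart from a change per cell.

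On the SUP-B8-labelled arrays none of the 35 members passed the test in either direction by limma, where 1.91% of all genes were called higher and 0.334% lower. At an unadjusted p under 0.05 there were 4, where 16.7% of all genes passed that threshold. The member median was -0.01, against -0.02 for all genes. On the representative probe sets the largest differences were in CREB3L2, 0.26 ± 0.05 (SE, adjusted p = 0.0503), and EDEM1, -0.26 ± 0.06 (SE, adjusted p = 0.0603). Each passed in 3 of the 17 alternatives. The 95% intervals of the members, each taken alone, reached at most 0.38 upward (CREB3L2) and -0.39 downward (EDEM1). For HSPA5 the interval ran from -0.16 to 0.09 and for HSP90B1 from -0.19 to 0.11, so the rises on the NALM-6-labelled arrays lay outside them. The other probe set of HSP90B1 was lower there, at -0.38 ± 0.11 (SE). It did not pass by limma when every probe set was tested (adjusted p = 0.251). Of the other pathway genes only DNAJC1 was called, higher by 0.27 (adjusted p = 0.0485), and that call was lost in 14 of 17 alternatives.

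**Figure D3:**
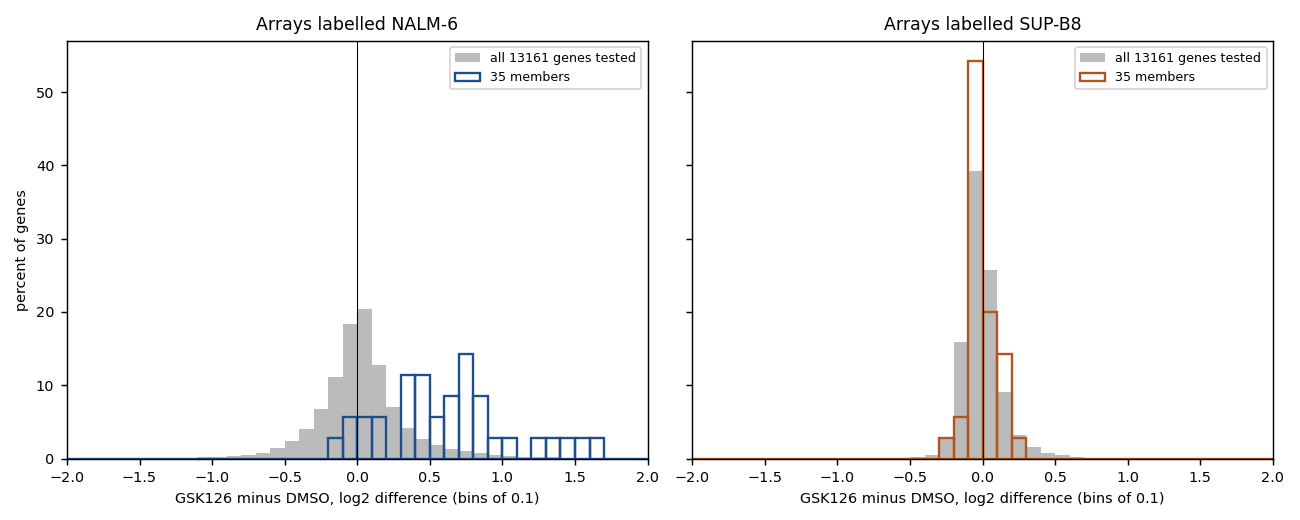
Share of genes (vertical axis, percent) by log2 difference of GSK126 minus DMSO in bins of 0.1 (horizontal axis); grey bars are all 13161 genes tested and outlined bars the 35 members, with NALM-6-labelled arrays on the left and SUP-B8-labelled arrays on the right. The members' median is 0.61 on the left and -0.01 on the right, against 0.02 and -0.02 for all genes.

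The 2 responses were compared directly as the difference of differences. The SUP-B8-labelled response was the lower for 29 of the 35 members and the higher for 0, where 14.5% of all genes were called lower and 10.9% higher. Over all genes that was 1440 higher and 1903 lower, and 1562 and 1379 when each array was centred on its median. On the representative probe sets the differences were widest for ERN1, at -1.51 ± 0.07 (SE; adjusted p = 1.1e-05), SDF2L1, at -1.43 ± 0.08 (SE), and HSP90B1, at -1.38 ± 0.09 (SE). HERPUD1, SEC61B, SPCS1, SRP54, ATF6 and EIF2AK3 did not pass. EIF2AK3 came closest, in the opposite direction, at 0.26 ± 0.08 (SE; adjusted p = 0.0504). The calls of DERL1 (-0.32; adjusted p = 0.0421) and SEC11C (-0.28; adjusted p = 0.0394) had the highest adjusted p of the 29. DERL1 was lost without any 1 array but the second NALM-6-labelled DMSO array, and SEC11C without any but the first SUP-B8-labelled DMSO array, with values down to -0.23 and -0.22. As means of their probe sets CREB3L2 gave -0.39 and PDIA3 -0.40, which passed, and ERO1A -0.205 and SEC11C -0.13, which did not.

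With DMSO alone, at the same 72 hours, the lines differed at nearly every member, in both directions. Of the 35 members, 20 were called higher and 13 lower on the SUP-B8-labelled than on the NALM-6-labelled arrays, where 37.8% of all genes were called higher and 30.6% lower; DERL2 and SPCS1 did not pass. DERL2, at 0.12, passed in 3 alternatives, at 0.31 as the mean of its probe sets and 0.21 without the second NALM-6-labelled DMSO array, and SPCS1, at 0.08, passed with a trended robust prior. The calls of DERL1, at 0.19, and SEC61B, at -0.16, were lost in some alternatives, at 0.10 without the first and -0.14 without the second NALM-6-labelled DMSO array. As means of their probe sets they were larger, DERL1 at 0.38 and SEC61B at -0.86. The second probe set of SEC61B, at -1.55, lay below the array medians under the SUP-B8 label. The median difference was 0.40, against 0.04 for all genes. This comparison uses the same NALM-6-labelled DMSO arrays as the response above, so the 2 are not independent. The lectin chaperones, isomerases and folding enzymes were all higher under the SUP-B8 label, 8 of 8, by 0.38 to 1.12. Of the lumenal chaperones 7 of 9 were higher, with SDF2L1 at 1.16 ± 0.06 (SE), HYOU1 at 1.02 ± 0.07 (SE) and HSPA5 at 0.99 ± 0.06 (SE), while the co-chaperones DNAJB9 (-0.90) and DNAJC3 (-0.87) were lower.

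The sensors and CREB3L2 ran the other way, with 4 of 4 lower on the SUP-B8-labelled arrays. On the representative probe sets ERN1 differed most of all members, by -2.13 ± 0.05 (SE), or 4.37-fold (adjusted p = 2.91e-09). As means of their probe sets ERN1 was at -1.405 and SEC11C further apart, at -1.78. Those means include a probe set of each gene that lay below the array medians under the SUP-B8 label. HERPUD1 was lower by 2.91-fold (-1.54 ± 0.05 (SE)), SEC11C by 2.76-fold (-1.46 ± 0.06 (SE)) and EDEM1 by 2.36-fold (-1.24 ± 0.06 (SE)). PDIA3 was higher by 1.12 ± 0.05 (SE), and by 0.34 as the mean of its probe sets. Some regulators outside the list lay far apart too. XBP1 was 1.41 ± 0.06 (SE) higher under the SUP-B8 label (0.72 as the mean of its probe sets). DDIT3 and PPP1R15A were lower, at -1.97 and -2.06. These include the highest and the lowest of the 10 regulators tested. Of those 10, 3 were called higher and 6 lower, with a median of -0.275, against 37.8% and 30.6% of all genes. By group means 13 of the 35 members were higher under the NALM-6 label with DMSO and 25 were with GSK126. The second count is a description with no test, and neither share was taken over all genes.

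The probe sets of a member mostly moved together. Of the 82, 61 were called higher and 0 lower on the NALM-6-labelled arrays when every probe set was tested, against 10.4% and 10.1% of all 54675 probe sets. Several probe sets measured 23 members and a single one 12. Of the 47 probe sets that do not represent their gene, 40 had a difference above 0, and the share over all probe sets was not counted. Below the array median on all 8 arrays were 3 of the 82. Leaving out those 3, called and uncalled probe sets stood side by side in CREB3L2, DERL1, ERN1, ERO1A, PDIA3, SEC11C and SEC61B. The third probe set of PDIA3 was at -0.20, the fourth of DERL1 at 0.06 against 0.31 to 0.49 in the others, and the second of SEC61B at 0.43 against 0.06. Uncalled values of both signs occurred in ATF6 and in HERPUD1, whose second probe set was at 0.11.

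**Figure D4:**
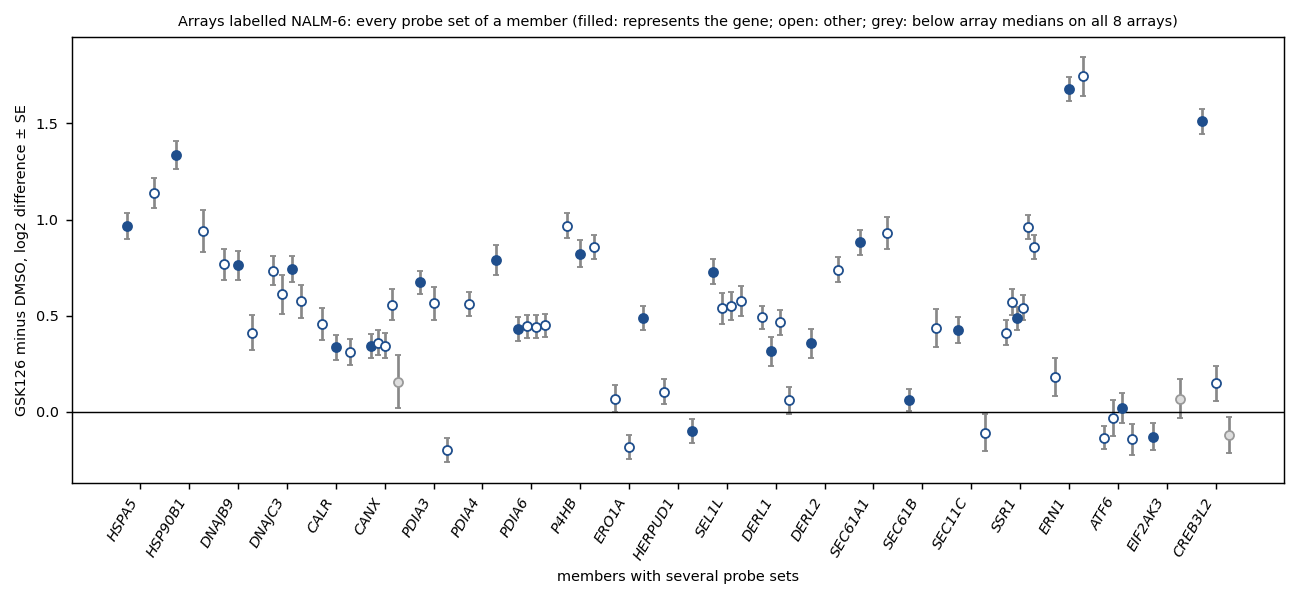
Log2 difference of GSK126 minus DMSO with standard error (vertical axis) on the NALM-6-labelled arrays for every probe set of the 23 members that have several; filled points represent the gene, open points are its other probe sets and grey points lie below the array median on all 8 arrays. Most members' points lie together above 0, while CREB3L2, ERO1A and SEC11C have 1 filled point above their other probe sets.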

How the data were processed

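The values were the deposited log2 expression of 54675 probe sets on 8 arrays, with no missing value. Per the submitters' processing notes the tools were MAS5 and RMA, with no role or version given; the deposited log2 values, which have nearly equal medians, were used as they stand. Total RNA was labelled as biotinylated cRNA, per the labels' protocols. The array number limits the precision.

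Gene names came from the platform annotation, in which 41097 probe sets had 1 symbol, 1801 several and 11777 none listed, and only the first were used. A gene was represented by its probe set with the highest mean over the 8 arrays and tested if at least 2 arrays exceeded their own overall median, giving 13161 genes. limma 3.58.1 (R 4.3.3; lmFit, eBayes) fitted all 8 arrays with one mean per group, leaving 4 residual degrees of freedom; p-values were Benjamini-Hochberg adjusted over all genes and called under 0.05. With 2 arrays against 2 a permutation of arrays could not fall below the threshold.

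All members were accounted for; per-array values were given for 8 set members and for those called with the 5 largest rises and falls in each comparison, and other pathway genes were named as up to 3 called per list and direction. The members and all lists were chosen with earlier results of these data known. Promoter sequences came from RefSeq (GRCh38.p14); DERL1, PDIA3 and SPCS1 had no entry. Alternatives changed the dim filter, probe set rule, normalization, variance prior, arrays fitted and replicate block, and left out each array.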

Additional observations from a re-analysis of the deposited data

Results flagged for a closer look

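The test of the difference between the 2 responses (SUP-B8-labelled minus NALM-6-labelled, limma, adjusted p under 0.05) picked out 29 members, which are given here by role as log2 differences. Among the lumenal chaperones and cofactors these were HSPA5 at -1.0, HSP90B1 at -1.38, HYOU1 at -0.75, SDF2L1 at -1.43, DNAJB9 at -0.63, DNAJB11 at -0.56, DNAJC3 at -0.62, MANF at -1.28 and CRELD2 at -0.86. Among the lectin chaperones, isomerases and folding enzymes they were CALR at -0.43, CANX at -0.35, PDIA3 at -0.72, PDIA4 at -0.84, PDIA6 at -0.53, P4HB at -0.80, ERO1A at -0.49 and FKBP2 at -0.64. In ER-associated degradation they were EDEM1 at -0.46, EDEM2 at -0.70, SEL1L at -0.71, DERL1 at -0.32, DERL2 at -0.42 and SELENOS at -1.08. In translocation they were SEC61A1 at -0.90, SEC11C at -0.28, SSR1 at -0.53 and SSR4 at -0.55, and among the sensors ERN1 at -1.51 and CREB3L2 at -1.25.

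The same test picked out named genes outside the list. The response was lower under the SUP-B8 label for XBP1 at -0.86, ATF4 at -0.26, CREB3 at -0.43, DNAJC1 at -0.73, PPIB at -0.94, ERO1B at -0.70, EDEM3 at -0.62, ERLEC1 at -0.54, HM13 at -0.43, SPCS3 at -0.73, SSR3 at -0.56, TRAM1 at -0.51, RPN2 at -0.62, ALG5 at -0.46, OSTC at -0.46, LMAN1 at -0.76, SURF4 at -0.58 and TMED2 at -0.47. It was higher for PPP1R15A at 1.32, ERP44 at 0.39 and SEC62 at 0.32. The calls of ATF4, CREB3 and SEC62 were lost in 10, 8 and 10 alternatives, single omitted arrays among them, with SEC62 at 0.16 (adjusted p = 0.149) as the mean of its probe sets. Those of DERL1 and SEC11C were lost in 11 and 12, and that of ERO1A with the mean of its probe sets.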

How the results depend on the processing

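With 2 arrays per group, 17 alternatives were run, 8 of them leaving out 1 array; each of those leaves a group with 1 array, which is assumed to vary like the others. Of the 30 members called higher on the NALM-6-labelled arrays, 26 were called under every alternative and 28 under every omission; EDEM1, ERO1A, SEC11C and SRP54 were lost in some. Of 29 members in the difference of responses 26 were kept under every alternative, and of 33 in the DMSO comparison 31. The labels do not say whether cultures with the same replicate number were grown together. Same-numbered deviations correlated at -0.042 (SUP-B8-labelled) and -0.018 (NALM-6-labelled), which cannot settle it with 1 replicate difference per group. With the replicate block SRP54 was lost (adjusted p = 0.0568), with DERL1 and SEC11C in the difference of responses.

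On the NALM-6-labelled arrays the number of members called lower was 2 with a trended robust prior and 0 to 1 over the omissions, and of other pathway genes 10 with that prior and 3 to 6 over the omissions. The member median was 0.663 after renewed quantile normalization and 0.543 to 0.679 over the omissions. On the SUP-B8-labelled arrays 1 member was called higher with the stricter filter, renewed quantile normalization or the trended prior. The number of members lower was 1 with the mean of probe sets, 1 with renewed quantile normalization and 2 with the trended prior. The single other pathway gene called higher became 0 with no filter, the mean of probe sets, every probe set tested, centring, only the 4 arrays compared, the replicate block and each omission (range 0 to 0), and 4 were lower with the trended prior. In the difference of responses 1 member, EIF2AK3, was higher with the stricter filter, the mean of probe sets, renewed quantile normalization, centring and the trended prior, and 0 to 1 over the omissions. The DMSO member median was 0.337 with the mean of probe sets, and ALG5 there reversed from 0.036 to -0.171. The causes were not tested. Centring each array gave 2255 genes higher and 2621 lower on the NALM-6-labelled arrays, against 2741 and 2437.

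On the SUP-B8-labelled arrays counts over all genes moved most: 252 higher and 44 lower became 504 and 273 with the trended prior, 146 and 14 with no filter, and 24 and 3 without the first GSK126 array.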
